A study of Mus musculus with 18 samples.

Results

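The genes described here are 10 genes of the endothelium, the cell layer that lines blood and lymph vessels: *Kdr*, *Flt1*, *Tek*, *Pecam1*, *Cdh5*, *Esam*, *Plvap*, *Emcn*, *Vwf* and *Lyve1*. They were chosen by symbol as established endothelial genes, and each symbol matched 1 of the 47729 genes of the colon count table. All 10 passed the filter on low counts in each comparison.

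RNA-Seq was performed on whole colon tissue from 9 mice of C57BL/6 background, 3 in each of 3 groups. Naive WT mice (1 to 3) were wild-type animals labelled as controls. WT CAC mice (4 to 6) were wild-type animals that received 10 mg/kg of the carcinogen azoxymethane (AOM), followed by 2.5% dextran sulfate sodium (DSS) in 3 cycles, which injures the colonic epithelium. The combination serves as a model of cancer arising from colitis (CAC). Mice 7 to 9, named *Cldn2*TG CAC, carried a Claudin-2 transgene and received AOM and DSS in the same way. The villin promoter drives this transgene in the intestinal epithelium, and the methods describe no endothelial promoter. Ages are not given in the sources used here, and untreated *Cldn2*TG mice were not analysed here, so genotype was compared only after AOM and DSS.

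Endothelial growth and upkeep depend on receptors on the cell surface. VEGF ligands act through the tyrosine kinase KDR, FLT1 binds the same ligands and limits their access to KDR, and angiopoietins act through TEK, also called TIE2. Adjoining endothelial cells are held together by VE-cadherin (*Cdh5*), PECAM1 and ESAM, and the capillaries under the colonic epithelium are fenestrated, with diaphragms built from PLVAP. Colitis and tumours are known to remodel this capillary bed.

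The libraries held between 14142711 counts (WT CAC mouse 6) and 22262546 counts (WT CAC mouse 5). Levels are given as CPM (counts relative to the library total), scaled with TMM factors over all 9 mice. Single counts of the 10 genes ran from 7 (*Flt1* in *Cldn2*TG CAC mouse 8) to 456 (*Plvap* in naive WT mouse 3), above the 3 counts that a count of 0 would allow. A pair of libraries stood apart. *Xist*, which is transcribed from the inactive X chromosome of females, had 4309 counts in naive WT mouse 1 and 0 to 4 in every other mouse. By *Xist*, sex was thus not balanced between naive WT and the treated groups, although the methods describe sex-matched mice. The labels give no sex, and its part in the comparisons with naive WT was not tested. WT CAC mouse 4 differed from WT CAC mice 5 and 6 by a chi-square of 66.31 and 65.32 per degree of freedom, while mice 5 and 6 differed by 31.9 and all pairs within the other groups by 16.79 to 25.09. Without WT CAC mouse 4, the number of genes called over the whole table rose from 2310 to 4080 in WT CAC against naive WT, and from 1421 to 2894 in *Cldn2*TG CAC against WT CAC.

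*Cldn2* itself served as a check of the genotype label. It stood at 191, 258 and 243 CPM in naive WT mice, at 122, 136 and 134 CPM in WT CAC mice and at 209, 217 and 249 CPM in *Cldn2*TG CAC mice. Every *Cldn2*TG CAC mouse was above every WT CAC mouse, while the *Cldn2*TG CAC and naive WT mice overlapped. The log2 fold change in *Cldn2*TG CAC against WT CAC was 0.78 ± 0.12 (SE), with an edgeR adjusted p of 0.0103, which became 0.058 without mouse 8 and 0.0597 without mouse 9. The counts do not separate the transgene from the endogenous gene.

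The levels of all 10 endothelial genes overlapped between naive WT and WT CAC colon, and 5 of them (*Plvap*, *Flt1*, *Cdh5*, *Esam* and *Pecam1*) were called lower by edgeR in *Cldn2*TG CAC colon against both, with 7.35% of all genes tested called lower against WT CAC and 6.07% against naive WT. Most of these calls depended on single mice, as given for each gene below. The summed level of all 10 was 69.1, 84.5 and 79.7 CPM in naive WT mice, 65.4, 87.1 and 72.8 CPM in WT CAC mice, and 39.1, 33.5 and 43.9 CPM in *Cldn2*TG CAC mice. The ranges of both WT groups overlapped, and all *Cldn2*TG CAC mice lay below all WT mice. The group means were 77.8 ± 7.87, 75.1 ± 11 and 38.9 ± 5.21 CPM (SD, n = 3), so the mean of the *Cldn2*TG CAC mice was 51.7% of the WT CAC mean and 49.9% of the naive WT mean. In whole tissue, fewer endothelial cells and less RNA of these genes per endothelial cell cannot be told apart.

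**Figure D1:**
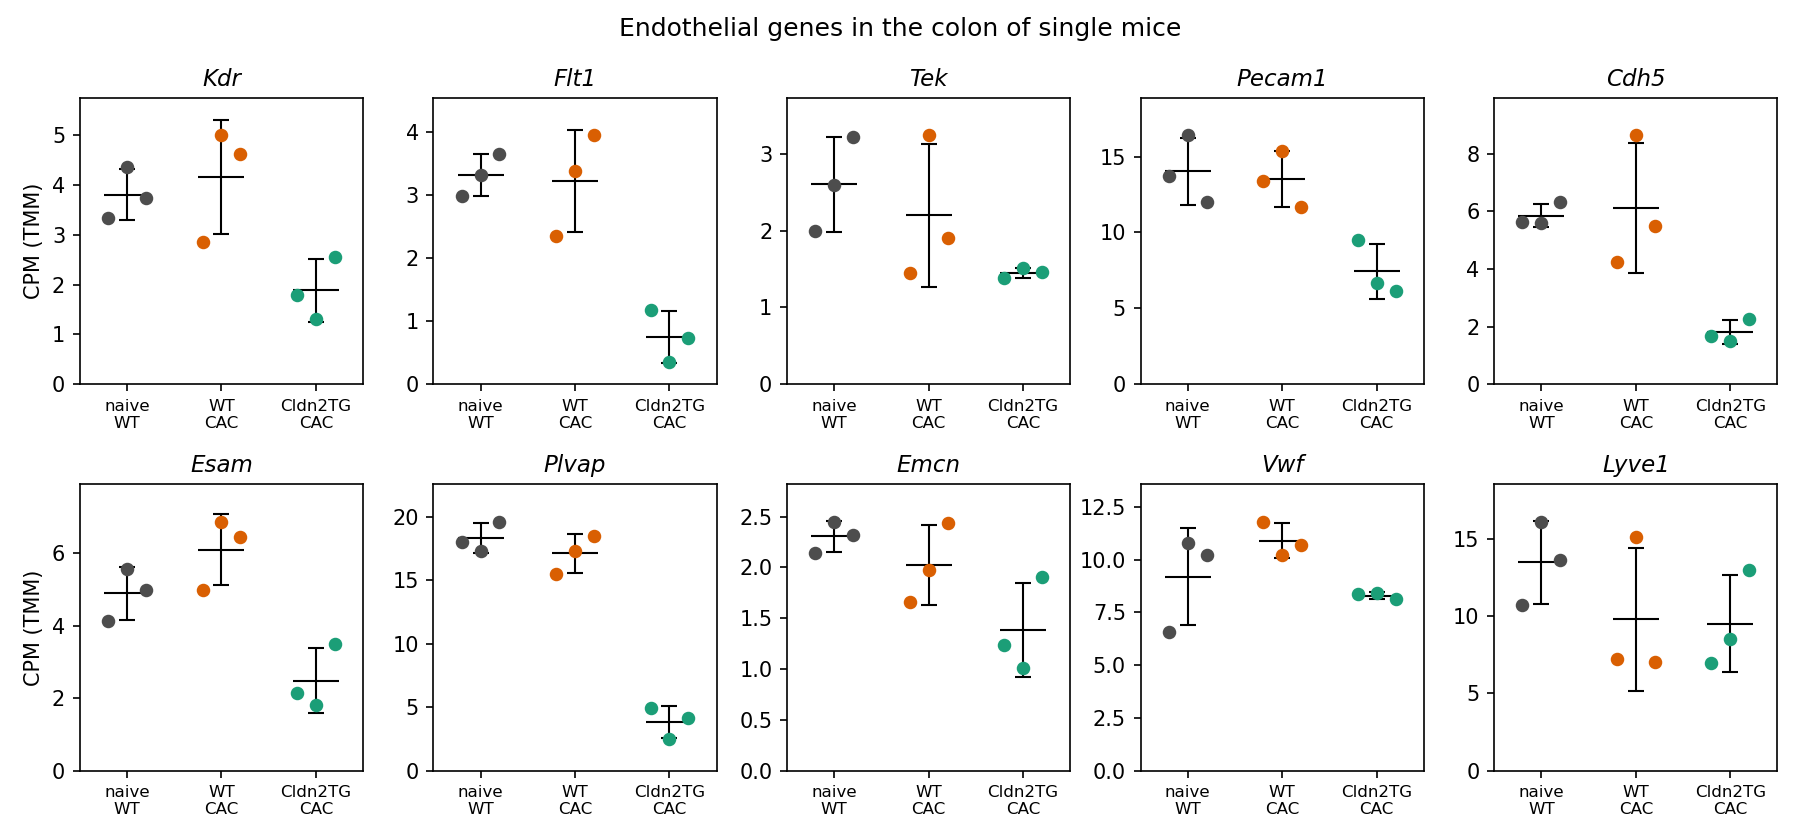
Level of each of the 10 endothelial genes in single mice, in CPM with TMM factors, on axes that start at 0. Points are mice, horizontal bars are group means and whiskers are 1 SD (n = 3). The *Cldn2*TG CAC points of *Plvap*, *Flt1* and *Cdh5* lie far below those of both WT groups, while those of *Lyve1* overlap both.

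Among the growth factor receptors, only *Flt1* was called by edgeR in both comparisons of *Cldn2*TG CAC mice. *Flt1* (ENSMUSG00000029648, chr5:147561604-147726011, minus strand, GRCm38) stood at 2.98, 3.31 and 3.65 CPM in naive WT mice, 2.34, 3.38 and 3.94 CPM in WT CAC mice, and 1.17, 0.352 and 0.732 CPM in *Cldn2*TG CAC mice. All 3 *Cldn2*TG CAC mice were below all WT mice, and both WT groups overlapped. Its level was 4.34-fold lower in *Cldn2*TG CAC than in WT CAC mice (log2 fold change -2.12 ± 0.45 SE, edgeR adjusted p = 0.0235) and 4.50-fold lower than in naive WT mice (-2.17 ± 0.37, edgeR adjusted p = 0.00692). *Flt1* had 7 to 17 counts per *Cldn2*TG CAC mouse and passed the filter on low counts only through the WT mice. Its interval was the widest of the 10 genes in *Cldn2*TG CAC against WT CAC, from -3.14 to -1.10. The call against WT CAC was lost without WT CAC mouse 5 or 6 and without *Cldn2*TG CAC mouse 8 or 9 (edgeR adjusted p of 0.0687, 0.0699, 0.0928 and 0.105) and with lane 2 alone (0.0556). The call against naive WT was kept in all 13 alternatives that tested it.

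*Kdr* (ENSMUSG00000062960, chr5:75932827-75978458, minus strand) encodes the main signalling receptor for VEGF. It stood at 3.33, 4.36 and 3.74 CPM in naive WT mice, 2.86, 5.0 and 4.62 CPM in WT CAC mice and 1.80, 1.31 and 2.56 CPM in *Cldn2*TG CAC mice. The highest *Cldn2*TG CAC mouse, 9, was close below the lowest WT CAC mouse, 4. The log2 fold change was -1.15 ± 0.36 (SE) against WT CAC, which edgeR did not call (adjusted p = 0.0814), and -1.02 ± 0.28 against naive WT, which it called (adjusted p = 0.0452). Both stood near the threshold. The first was called by DESeq2 (adjusted p = 0.0439), without WT CAC mouse 4 (0.0171), with all 9 mice in the fit (0.0356) and with lane 2 alone (0.0372). The second was not called without naive WT mouse 1, 2 or 3 (0.064, 0.121 and 0.119), without *Cldn2*TG CAC mouse 7 or 8 (0.0844 and 0.149), with all 9 mice in the fit (0.104) or with lane 1 alone (0.152).

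*Tek* (ENSMUSG00000006386, chr4:94739289-94874976, plus strand), the angiopoietin receptor, stood at 1.99, 2.60 and 3.22 CPM in naive WT mice, 1.45, 3.24 and 1.90 CPM in WT CAC mice and 1.38, 1.51 and 1.46 CPM in *Cldn2*TG CAC mice. The *Cldn2*TG CAC mice lay below every naive WT mouse but overlapped WT CAC mouse 4. Its log2 fold change was -0.61 ± 0.37 (SE) against WT CAC and -0.84 ± 0.28 against naive WT, with edgeR adjusted p-values of 0.387 and 0.0825, so neither was called.

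The junction genes were lower in *Cldn2*TG CAC mice to different degrees. *Cdh5* (ENSMUSG00000031871, chr8:104101625-104144502, plus strand), which encodes the cadherin of endothelial adherens junctions, stood at 5.62, 5.61 and 6.32 CPM in naive WT mice, 4.26, 8.64 and 5.50 CPM in WT CAC mice and 1.66, 1.51 and 2.27 CPM in *Cldn2*TG CAC mice. WT CAC mice spread on both sides of the naive WT mice, and the *Cldn2*TG CAC mice formed a separate low group. *Cdh5* was 3.42-fold lower than in WT CAC mice (log2 fold change -1.77 ± 0.35 SE, edgeR adjusted p = 0.018) and 3.24-fold lower than in naive WT mice (-1.69 ± 0.24, edgeR adjusted p = 0.00322). The call against WT CAC was lost without WT CAC mouse 5 (edgeR adjusted p = 0.0569) and without *Cldn2*TG CAC mouse 7, 8 or 9 (0.0726, 0.0933 and 0.0688). The call against naive WT was kept in all 14 alternatives.

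*Esam* (ENSMUSG00000001946, chr9:37528078-37538319, plus strand), an adhesion molecule of endothelial tight junctions, stood at 4.13, 5.56 and 4.99 CPM in naive WT mice, 4.99, 6.88 and 6.45 CPM in WT CAC mice and 2.14, 1.81 and 3.51 CPM in *Cldn2*TG CAC mice. Every *Cldn2*TG CAC mouse was below every WT mouse. The log2 fold changes were -1.31 ± 0.31 (SE) against WT CAC and -0.98 ± 0.28 against naive WT, with edgeR adjusted p-values of 0.0353 and 0.0478. The call against WT CAC was lost without WT CAC mouse 5 or 6 (edgeR adjusted p of 0.109 and 0.0908) and without mouse 7, 8 or 9 (0.131, 0.146 and 0.0622). The call against naive WT was lost without naive WT mouse 1, 2 or 3 (0.059, 0.125 and 0.131), without mouse 7 or 8 (0.101 and 0.161), with all 9 mice in the fit (0.0858) and with lane 2 alone (0.0912).

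*Pecam1* (ENSMUSG00000020717, chr11:106654217-106750628, minus strand), or CD31, is made by endothelial cells and also by platelets and leukocytes. It stood at 13.7, 16.4 and 12 CPM in naive WT mice, 13.4, 15.4 and 11.7 CPM in WT CAC mice and 9.53, 6.64 and 6.15 CPM in *Cldn2*TG CAC mice. The WT groups covered nearly the same range and the *Cldn2*TG CAC mice lay below it. *Pecam1* was 1.82-fold lower than in WT CAC mice (log2 fold change -0.87 ± 0.23 SE, edgeR adjusted p = 0.0459) and 1.88-fold lower than in naive WT mice (-0.91 ± 0.20, edgeR adjusted p = 0.0179). The call against WT CAC was lost without mouse 5, 6, 7, 8 or 9 (edgeR adjusted p of 0.153, 0.0699, 0.0543, 0.175 and 0.162), with lane 1 alone (0.0599) and with a minimum of 10 counts in every mouse (0.0504). The call against naive WT was lost without naive WT mouse 2 (0.0578) and without *Cldn2*TG CAC mouse 8 or 9 (0.0776 and 0.0569).

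*Plvap* (ENSMUSG00000034845, chr8:71497754-71511769, minus strand) was the only one of the 10 genes that edgeR called lower in both comparisons of *Cldn2*TG CAC mice whichever mouse was left out. This component of the diaphragms of fenestrated capillaries stood at 18.0, 17.3 and 19.6 CPM in naive WT mice, 15.5, 17.3 and 18.5 CPM in WT CAC mice and 4.90, 2.46 and 4.17 CPM in *Cldn2*TG CAC mice. The highest *Cldn2*TG CAC mouse, 7, lay far below the lowest WT mouse, 4. *Plvap* was 4.48-fold lower than in WT CAC mice (log2 fold change -2.16 ± 0.27 SE, edgeR adjusted p = 0.00661) and 4.79-fold lower than in naive WT mice (-2.26 ± 0.22, edgeR adjusted p = 0.000694). It was called in all 14 alternatives of both comparisons, with log2 fold changes of -2.37 to -1.90 against WT CAC and -2.49 to -2.01 against naive WT. *Plvap* and *Flt1* cannot be ranked by size, since *Flt1* fell more without mouse 7 (-2.58 and -2.66 in these comparisons). Its span overlaps *Gtpbp3* on the opposite strand, but their exons share 0 bases.

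*Emcn* (ENSMUSG00000054690, chr3:137341067-137432185, plus strand), a sialomucin of capillary and venous endothelium, stood at 2.14, 2.45 and 2.32 CPM in naive WT mice, 1.66, 1.97 and 2.44 CPM in WT CAC mice and 1.24, 1.01 and 1.90 CPM in *Cldn2*TG CAC mice. Mouse 9 of the *Cldn2*TG CAC group lay within the WT CAC range and below the naive WT mice. edgeR called neither its log2 fold change against WT CAC (-0.56 ± 0.35 SE, adjusted p = 0.409) nor that against naive WT (-0.75 ± 0.30, adjusted p = 0.144).

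*Vwf* and *Lyve1* differed least. *Vwf* (ENSMUSG00000001930, chr6:125546774-125686679, plus strand) encodes von Willebrand factor, a clotting protein stored by endothelial cells and megakaryocytes. It stood at 6.57, 10.8 and 10.2 CPM in naive WT mice, 11.8, 10.2 and 10.7 CPM in WT CAC mice and 8.35, 8.40 and 8.12 CPM in *Cldn2*TG CAC mice. The *Cldn2*TG CAC mice lay just below the WT CAC mice and within the naive WT range. The log2 fold changes were -0.40 ± 0.17 (SE) against WT CAC and -0.14 ± 0.20 against naive WT, with edgeR adjusted p-values of 0.204 and 0.693. The 95% interval ran from -0.79 to -0.01 against WT CAC and from -0.58 to 0.30 against naive WT.

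*Lyve1* (ENSMUSG00000030787, chr7:110850607-110862953, minus strand) encodes a hyaluronan receptor of lymphatic endothelium that some tissue macrophages also carry. It stood at 10.7, 16.1 and 13.6 CPM in naive WT mice, 7.22, 15.1 and 6.99 CPM in WT CAC mice and 6.97, 8.50 and 13.0 CPM in *Cldn2*TG CAC mice. All 3 groups overlapped, and the spread within each treated group was wide. Its log2 fold change was -0.05 ± 0.36 (SE) against WT CAC, with a 95% interval from -0.88 to 0.77 and an edgeR adjusted p of 0.961. Against naive WT it was -0.50 ± 0.24, with an edgeR adjusted p of 0.212, and no filter on low counts brought it to 0.0468.

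The comparison of WT CAC with naive WT asks what AOM and DSS changed in wild-type colon. edgeR called 0 of the 10 genes, with 0 at an unadjusted p under 0.05 and 0 called by DESeq2, while 15.0% of the 15437 genes tested were called (8.04% higher and 6.92% lower). The log2 fold changes ran from -0.45 (*Lyve1*) to 0.33 (*Esam*), with a median of -0.04 beside 0.021 over all genes tested. The precision differed between genes. The 95% interval was -0.40 to 0.22 for *Plvap* and -1.08 to 0.62 for *Tek*. Leaving out any single mouse, edgeR again called 0 of the 10, with 0 at an unadjusted p under 0.05 except without WT CAC mouse 5, where there was 1. This was *Lyve1*, at -0.92 with an edgeR adjusted p of 0.0553.

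Setting *Cldn2*TG CAC beside WT CAC asks what the transgene changed under AOM and DSS. 5 of the 10 genes were called lower (*Plvap*, *Flt1*, *Cdh5*, *Esam* and *Pecam1*), and 7.35% of the 14888 genes tested were called lower, 2.19% higher and 9.54% in either direction. In 7 of the 10, every *Cldn2*TG CAC mouse was below every WT CAC mouse, as for 15.2% of the genes tested. The median log2 fold change was -1.01, beside 0.008 over all genes tested. DESeq2 called 6, with *Kdr* added, and without WT CAC mouse 4 edgeR called the same 6. The other single mice had more weight. Without WT CAC mouse 5 or 6, 1 and 2 of the 10 were called, and without *Cldn2*TG CAC mouse 7, 8 or 9, 2, 1 and 1. Over the whole table these 5 fits called 555, 805, 460, 58 and 108 genes. A minimum of 10 counts in every mouse left 3 called (*Cdh5*, *Plvap* and *Esam*) and removed *Flt1* from the test.

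Setting *Cldn2*TG CAC beside naive WT uses the same transgenic mice as the comparison before it, so its values are given beside it and not as separate support. 6 of the 10 genes were called lower (*Plvap*, *Flt1*, *Cdh5*, *Kdr*, *Esam* and *Pecam1*), and 6.07% of the 15013 genes tested were called lower, 3.92% higher and 10.0% in either direction. In 8 of the 10, every *Cldn2*TG CAC mouse was below every naive WT mouse, as for 16.4% of the genes tested. The median log2 fold change was -0.95, beside 0.002 over all genes tested. Without naive WT mouse 1, 4 were called (*Pecam1*, *Cdh5*, *Flt1* and *Plvap*), and without naive WT mouse 2 or *Cldn2*TG CAC mouse 8, 3 (*Cdh5*, *Flt1* and *Plvap*). Without naive WT mouse 3 or *Cldn2*TG CAC mouse 7 or 9, 4, 4 and 5 were called.

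**Figure D2:**
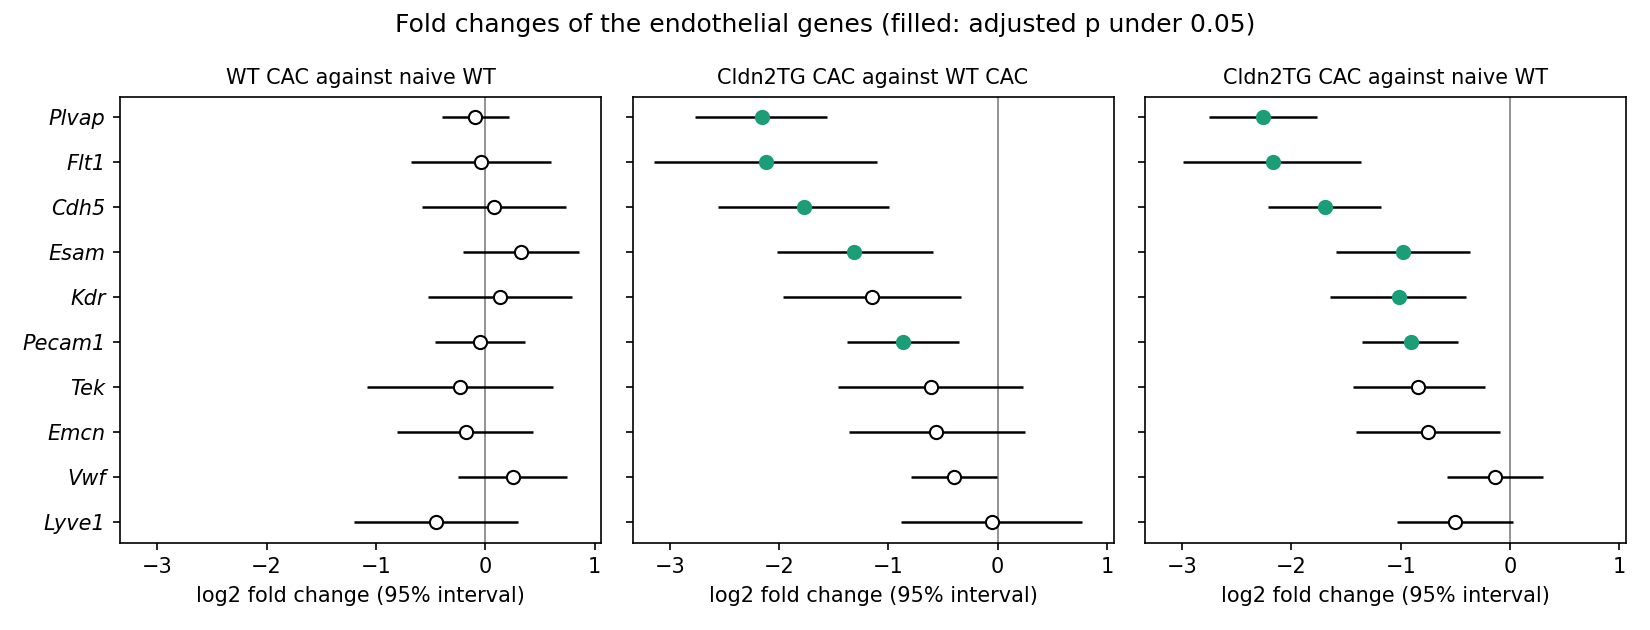
log2 fold changes of the 10 endothelial genes in the 3 comparisons, with 95% intervals from the edgeR fit of 3 mice against 3. Filled points passed an adjusted p of 0.05. In WT CAC against naive WT all intervals include 0, and in both comparisons of *Cldn2*TG CAC mice the genes are spread from *Plvap*, near -2.2, to *Vwf* and *Lyve1*.

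The order of the genes was compared as TPM, which accounts for exon lengths of 2015 bases (*Plvap*) to 16064 bases (*Vwf*). In naive WT colon the order was *Plvap* at 23.5 ± 2.37 TPM, *Lyve1* at 13.4 ± 2.64, *Pecam1* at 5.82 ± 0.748, *Esam* at 4.41 ± 0.651, *Cdh5* at 3.80 ± 0.400, *Vwf* at 1.48 ± 0.381, *Tek* at 1.44 ± 0.384, *Emcn* at 1.10 ± 0.0816, *Kdr* at 1.09 ± 0.139 and *Flt1* at 0.636 ± 0.0838 (SD, n = 3). *Esam* and *Cdh5* lay within their spread of each other, as did *Vwf*, *Tek*, *Emcn* and *Kdr*. In *Cldn2*TG CAC colon *Lyve1* came first at 8.07 ± 2.23 TPM and *Plvap* second at 4.28 ± 1.48, followed by *Pecam1* at 2.70 ± 0.795 and *Esam* at 1.92 ± 0.603. *Plvap* exceeded *Lyve1* in each of the 6 WT mice and was below it in each of the 3 *Cldn2*TG CAC mice. The closest of these was mouse 7, with 5.72 TPM of *Plvap* and 6.28 TPM of *Lyve1*. *Cdh5*, at 1.01 ± 0.178 TPM, lay next to *Vwf*, at 1.16 ± 0.0783 TPM, and within its spread. *Flt1* was lowest in both groups, at 0.126 ± 0.0734 TPM in *Cldn2*TG CAC mice.

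Ratios of 2 genes within a mouse do not depend on the scaling between libraries. *Vwf* was taken as divisor after its small fold changes were known, so these ratios restate the fold changes above in single mice and are no separate test. *Plvap* CPM divided by *Vwf* CPM was 2.73, 1.60 and 1.92 in naive WT mice, 1.31, 1.69 and 1.73 in WT CAC mice and 0.587, 0.293 and 0.514 in *Cldn2*TG CAC mice. *Cdh5* divided by *Vwf* was 0.856, 0.519 and 0.620 in naive WT mice, 0.361, 0.845 and 0.513 in WT CAC mice and 0.198, 0.180 and 0.279 in *Cldn2*TG CAC mice. Both ratios were lower in each *Cldn2*TG CAC mouse than in any WT mouse.

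Other genes of the vasculature were read from 12 lists of endothelial function and subtype, which hold 78 genes outside the 10, some in more than 1 list. In WT CAC against naive WT, 14 of the 73 tested were called higher and 4 lower (*Nrp2*, *Edn1*, *Tfpi* and *Car4*), with a median log2 fold change of 0.27, beside 8.04% higher, 6.92% lower and a median of 0.021 over all genes tested. In *Cldn2*TG CAC against WT CAC, 1 of the 69 tested was called higher (*Car4*) and 21 lower, with a median of -0.94, beside 2.19%, 7.35% and 0.008 over all genes. In *Cldn2*TG CAC against naive WT, 3 of the 70 tested were called higher (*Vegfa*, *Dll4* and *Nr2f2*) and 12 lower, with a median of -0.36, beside 3.92%, 6.07% and 0.002 over all genes. Without WT CAC mouse 4 these counts were 23 higher and 4 lower in the first comparison and 3 and 31 in the second. Leaving out any other mouse gave 1 to 7 higher and 0 to 3 lower in the first, 0 to 2 and 2 to 13 in the second, and 0 to 3 and 7 to 11 in the third. Some called genes, such as *Pgf* in the first comparison and *Sox7* in the second, passed the filter on low counts only through WT CAC mice. The counts over the lists follow in part from that filter.

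In the VEGF list, the ligand *Vegfa* stood at 37.1, 41.5 and 36.0 CPM in naive WT mice, 46.1, 36.4 and 32.5 CPM in WT CAC mice and 52.4, 58.4 and 45.8 CPM in *Cldn2*TG CAC mice. It was thus higher in *Cldn2*TG CAC than in naive WT mice (log2 fold change 0.46, edgeR adjusted p = 0.0291), while WT CAC mouse 4 overlapped the *Cldn2*TG CAC mice (0.44, edgeR adjusted p = 0.129). *Nrp1*, a co-receptor of KDR, was called lower against WT CAC (-1.28, edgeR adjusted p = 0.0426) and naive WT (-1.57, 0.00586). *Nrp2* was lower in both treated groups than in naive WT mice (-1.03 in WT CAC and -1.15 in *Cldn2*TG CAC, edgeR adjusted p of 0.0102 and 0.000572). *Pgf* was called higher in WT CAC mice (3.43, edgeR adjusted p = 0.0475) from 0.571, 0.921 and 4.48 CPM, and was not tested in the other comparisons.

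Of the 5 genes of the angiopoietin and TIE system, *Tie1*, the partner receptor of TEK, was called lower in *Cldn2*TG CAC mice against WT CAC (-1.79, edgeR adjusted p = 0.0157, 4 tested) and naive WT (-1.32, 0.0135, 5 tested). edgeR called 0 of the 5 in WT CAC against naive WT, with 0 at an unadjusted p under 0.05 and 0 by DESeq2. *Angpt2* stood at 3.27, 5.35 and 10.6 CPM in WT CAC mice and between 2.69 and 4.68 CPM in all others, and edgeR did not call it in any comparison.

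All 9 Notch, BMP and lipid receptor genes were tested. *Eng*, a co-receptor for BMP9, was at 7.86, 8.36 and 8.68 CPM in naive WT mice, 8.21, 13.5 and 12 CPM in WT CAC mice and 2.90, 1.96 and 3.22 CPM in *Cldn2*TG CAC mice. The *Cldn2*TG CAC mice were below all WT mice, by -2.07 on the log2 scale against WT CAC and -1.63 against naive WT (edgeR adjusted p of 0.0082 and 0.00302). *S1pr1*, a sphingosine-1-phosphate receptor that stabilises vessels, was called lower in both as well (-1.80 and -1.38, edgeR adjusted p of 0.0136 and 0.0126). *Ramp2* and *Notch4* were called lower against WT CAC only (-1.46 and -0.62, edgeR adjusted p of 0.0168 and 0.0386), and *Notch4* and *Dll4* were called higher in WT CAC than in naive WT mice (0.58 and 0.62, edgeR adjusted p of 0.0436 and 0.0283). *Dll4* was also called higher in *Cldn2*TG CAC than in naive WT mice (0.72, edgeR adjusted p = 0.0105). edgeR did not call *Notch1*.

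Among 10 junction and surface genes, *Robo4* and *Tie1* were called lower in *Cldn2*TG CAC mice against both WT groups, and *Cldn5*, *Mcam* and *Mmrn2* against naive WT. *Robo4* was lower by -1.85 on the log2 scale against WT CAC and -1.41 against naive WT (edgeR adjusted p of 0.0226 and 0.0204), and *Mcam* by -1.36 against naive WT (edgeR adjusted p = 0.00518). *Egfl7* was called higher in WT CAC mice (1.19, edgeR adjusted p = 0.016) and lower in *Cldn2*TG CAC against WT CAC mice (-1.60, 0.00883). *Ecscr* stood at 9.56, 25.9 and 53.7 CPM in WT CAC mice and at 5.66 to 8.17 CPM in all others, and was just above the edgeR threshold in WT CAC against naive WT (2.09, adjusted p = 0.0537) and in *Cldn2*TG CAC against WT CAC (-2.17, 0.0659). edgeR did not call *Clec14a*.

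Of 9 endothelial transcription factors, 6 of the 8 tested were called lower in *Cldn2*TG CAC against WT CAC mice, beside 7.35% of all genes tested. Among the 6, *Erg*, *Sox7* and *Sox17* had 2 to 8 counts per *Cldn2*TG CAC mouse and 12 to 282 per WT CAC mouse. They passed the filter on low counts only through WT CAC mice, so the count of 6 follows in part from the filter. *Sox18* stood at 3.03, 2.65 and 3.10 CPM in naive WT mice, 3.69, 6.40 and 5.77 CPM in WT CAC mice and 1.04, 1.16 and 0.878 CPM in *Cldn2*TG CAC mice. It was the only one of 6 tested that was called lower against naive WT too (-2.36 against WT CAC and -1.49 against naive WT, edgeR adjusted p of 0.00804 and 0.00842). *Ets1*, *Fli1* and *Sox17* were called higher in WT CAC than in naive WT mice and lower in *Cldn2*TG CAC than in WT CAC mice. *Sox17* had log2 fold changes of 4.40 and -4.70 (edgeR adjusted p of 0.0406 and 0.0453). With 3 to 11 counts per mouse outside the WT CAC group, its size is not ranked against the others. It stood at 1.77, 2.50 and 19.2 CPM in WT CAC mice and at 0.149 to 0.473 CPM in all others, so all 3 WT CAC mice were above the rest and mouse 6 was far the highest. edgeR did not call *Klf2*. *Ets1* and *Fli1* are also made by leukocytes, whose marker *Ptprc* had log2 fold changes of 1.31 and -1.81 in the same comparisons, beside 1.46 and -1.69 for *Fli1* and 1.16 and -1.84 for *Ets1*. Which cells these counts came from was not tested.

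Genes of vascular tone and clotting and of leukocyte recruitment were called both in WT CAC against naive WT and in *Cldn2*TG CAC against WT CAC. *Plat*, *Procr* and *Thbd* were called higher and *Edn1* and *Tfpi* lower in WT CAC against naive WT mice. *Plat*, tissue plasminogen activator, stood at 12.2, 52.4 and 71.1 CPM in WT CAC mice and at 3.04 to 7.68 CPM in all others. *Plat*, *Procr* and *Thbd* were called lower in *Cldn2*TG CAC against WT CAC mice, and against naive WT edgeR called 0 of 9, with 5 at an unadjusted p under 0.05 and 1 by DESeq2. The adhesion molecules *Icam1* and *Vcam1*, which endothelium presents to leukocytes but epithelium and stroma can also make, were called higher in WT CAC than in naive WT mice (2.81 and 1.75, edgeR adjusted p of 0.0223 and 0.0277). They were lower in *Cldn2*TG CAC than in WT CAC mice (-2.68 and -2.45, edgeR adjusted p of 0.0245 and 0.00426), and *Ackr1*, of venules, was lower against naive WT (-1.49, 0.035). *Ackr1* had 4 to 10 counts per *Cldn2*TG CAC mouse and passed the filter on low counts only through the naive WT mice. *Sele* reached at most 0.219 CPM and was not tested.

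Arterial, venous, capillary and tip cell genes were read as lists of vessel subtypes. *Efnb2* led the arterial list with 71.8 to 145 CPM and edgeR did not call it, while *Hey1* was called lower against WT CAC (-2.53, edgeR adjusted p = 0.0455) and *Sema3g* against naive WT (-1.60, 0.0234). *Hey1* had 4 to 9 counts and *Sema3g* 5 to 7 counts per *Cldn2*TG CAC mouse. Each passed the filter on low counts only through the WT mice of its comparison. *Ephb4* led the venous list without a call by edgeR, and *Nr2f2* was higher and *Ackr1* lower in *Cldn2*TG CAC than in naive WT mice. In every mouse *Efnb2* and *Ephb4* stood far above each of the 10 endothelial genes, and which cells their counts came from was not tested. *Car4* led the capillary list with 1840, 1610 and 1200 CPM in naive WT mice, 732, 458 and 287 CPM in WT CAC mice and 1770, 1680 and 2060 CPM in *Cldn2*TG CAC mice. This carbonic anhydrase of colonocytes and of some capillaries went the opposite way to *Plvap*, lower in WT CAC and not in *Cldn2*TG CAC mice. Of the tip cell list, *Dll4* and *Pgf* were called higher in WT CAC and *Dll4* in *Cldn2*TG CAC against naive WT mice. In WT CAC against naive WT, edgeR called 0 of 6 arterial and 0 of 4 venous genes, with 1 and 2 at an unadjusted p under 0.05 and 0 by DESeq2. In *Cldn2*TG CAC against WT CAC it called 0 of 3 venous and 0 of 5 tip cell genes, with 1 and 1 at an unadjusted p under 0.05 and 0 by DESeq2. Against naive WT it called 0 of 6 capillary genes, with 2 and 0.

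In the lymphatic list, *Prox1* was called higher in WT CAC against naive WT mice (4.39, edgeR adjusted p = 0.00834) and lower in *Cldn2*TG CAC against WT CAC mice (-4.29, 0.00875), with 17.9, 44.2 and 74.4 CPM in WT CAC mice and 1.84 to 2.71 CPM in all others. *Pdpn* was also highest in all 3 WT CAC mice (3.38, 6.31 and 5.23 CPM, with 2.16 to 3.20 CPM in all others), but edgeR did not call it (adjusted p of 0.113 and 0.0866 in these comparisons). *Lyve1*, *Mmrn1* and *Flt4* overlapped between all 3 groups, and *Ccl21a* had 0 counts in every mouse. *Prox1* is also known in epithelial tumour cells. edgeR called 0 of 5 lymphatic genes in *Cldn2*TG CAC against naive WT, with 0 at an unadjusted p under 0.05 and 0 by DESeq2.

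Markers of other cell types were read in the same libraries, since the colon samples could hold different shares of each. The 6 pericyte genes, of the cells that wrap capillaries, summed to 73.7, 72.2 and 90.2 CPM in naive WT mice, 55.2, 55.8 and 46.0 CPM in WT CAC mice and 40.1, 32.4 and 24.8 CPM in *Cldn2*TG CAC mice. The groups did not overlap, with WT CAC mice in the middle, unlike the 10 endothelial genes. *Rgs5*, with the most counts, and *Abcc9* were called lower in both treated groups against naive WT mice, *Pdgfrb* in *Cldn2*TG CAC mice against naive WT, *Notch3* in *Cldn2*TG CAC mice against WT CAC, and *Cspg4* in *Cldn2*TG CAC mice against both. Their part in the endothelial result was not tested.

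Fibroblast genes, of which *Col3a1* had the most counts, summed to 327, 237 and 342 CPM in naive WT mice, 385, 904 and 424 CPM in WT CAC mice and 201, 153 and 215 CPM in *Cldn2*TG CAC mice. All *Cldn2*TG CAC mice were below all WT mice. *Col3a1* was the only one of the 5 that edgeR called, against WT CAC (-1.74, adjusted p = 0.0353), where all 5 had an unadjusted p under 0.05 and all 5 were called by DESeq2. In WT CAC against naive WT edgeR called 0 of 5, with 3 at an unadjusted p under 0.05 and 2 by DESeq2, and in *Cldn2*TG CAC against naive WT 0 of 5, with 2 and 2. Relative to 1000 CPM of these fibroblast genes, the 10 endothelial genes summed to 211, 357 and 233 CPM in naive WT mice, 170, 96.3 and 172 CPM in WT CAC mice and 195, 219 and 204 CPM in *Cldn2*TG CAC mice. On this scale the *Cldn2*TG CAC mice were above the WT CAC mice, in which the fibroblast sum was highest, and mice 7 and 9 were below every naive WT mouse while mouse 8 overlapped them.

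Smooth muscle genes, led by *Tagln*, summed to 3960, 1950 and 2900 CPM in naive WT mice, 2940, 1030 and 1280 CPM in WT CAC mice and 1240, 1440 and 931 CPM in *Cldn2*TG CAC mice. WT CAC mice 5 and 6 were within the range of the *Cldn2*TG CAC mice. Relative to 1000 CPM of these smooth muscle genes, the 10 endothelial genes summed to 17.4, 43.4 and 27.5 CPM in naive WT mice, 22.3, 84.8 and 57 CPM in WT CAC mice and 31.6, 23.2 and 47.2 CPM in *Cldn2*TG CAC mice. All 3 groups overlapped on this scale. edgeR called *Myh11* and *Acta2* lower in *Cldn2*TG CAC against naive WT mice, where all 6 had an unadjusted p under 0.05, all 6 were called by DESeq2 and the median log2 fold change was -1.39. In the other comparisons edgeR called 0 of 6, with 1 at an unadjusted p under 0.05 and 1 by DESeq2 in WT CAC against naive WT, and 0 and 0 in *Cldn2*TG CAC against WT CAC. The part of fibroblasts and smooth muscle in the endothelial result was not tested.

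*Pecam1*, *Vwf* and *Lyve1* are also made by blood cells or macrophages, so these lists were set beside them. Platelet genes, led by *Pf4*, summed to 5.57, 5.16 and 5.67 CPM in naive WT mice, 11.8, 16.0 and 21.6 CPM in WT CAC mice and 5.39, 5.28 and 6.29 CPM in *Cldn2*TG CAC mice. *Pf4* and *Gp1bb* were called higher in WT CAC against naive WT and lower in *Cldn2*TG CAC against WT CAC mice, and *Gp9* was at or near 0 in all mice. Macrophage genes, led by *C1qa*, summed to 43.5, 105 and 108 CPM in WT CAC mice and to 17.1 to 29.0 CPM in all others, and *C1qa*, *Mrc1*, *Csf1r* and *Cd68* were called in the same directions as the platelet genes. Leukocyte genes summed to 39.1, 80.1 and 69.7 CPM in WT CAC mice and 6.21 to 25.5 CPM in all others. *Ptprc*, *S100a8* and *S100a9* were called higher in WT CAC against naive WT, and *Ptprc*, *S100a9* and *Cd79a* lower in *Cldn2*TG CAC against WT CAC. *S100a8* and *S100a9* had 0 to 7 counts in every mouse outside the WT CAC group and passed the filter on low counts only through WT CAC mice. *Pecam1*, *Vwf* and *Lyve1* had log2 fold changes of -0.05, 0.25 and -0.45 in WT CAC against naive WT, and the part of these cells in them was not tested. The part of these cells in the lower *Pecam1* of *Cldn2*TG CAC mice was not tested either, against WT CAC or against naive WT. Against naive WT, where *Pecam1* was lower too, edgeR called 0 of 3 platelet, 0 of 6 macrophage and 0 of 4 leukocyte genes, with 1, 2 and 0 at an unadjusted p under 0.05 and 0, 1 and 0 by DESeq2.

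Epithelial genes made up the bulk of the marker counts and differed little. Led by *Krt8*, they summed to 14000, 13600 and 15800 CPM in naive WT mice, 16800, 14600 and 13100 CPM in WT CAC mice and 13900, 16300 and 18100 CPM in *Cldn2*TG CAC mice. *Krt8* was called higher in *Cldn2*TG CAC against naive WT mice (0.43, edgeR adjusted p = 0.0384). In the other comparisons edgeR called 0 of 7, with 1 and 0 at an unadjusted p under 0.05 and 0 by DESeq2. Relative to 1000 CPM of *Epcam*, the 10 endothelial genes summed to 31.0, 36.1 and 33.3 CPM in naive WT mice, 23.6, 33.2 and 30.9 CPM in WT CAC mice and 15.6, 13.8 and 16.8 CPM in *Cldn2*TG CAC mice. The *Cldn2*TG CAC mice thus remained the lowest on this scale.

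Red blood cell genes, led by *Hbb-bs*, summed to 1.75 to 10.4 CPM with all groups overlapping, and edgeR called 0 of the 3, 1 and 2 tested, with 0 at an unadjusted p under 0.05 and 0 by DESeq2. Of the mesothelium and fat genes, *Msln* was called higher in WT CAC against naive WT and lower in *Cldn2*TG CAC against WT CAC mice, and against naive WT edgeR called 0 of 4, with 0 at an unadjusted p under 0.05 and 0 by DESeq2. *Adipoq*, of fat cells, reached 10.6 CPM in naive WT mouse 2 and 8.30 CPM in *Cldn2*TG CAC mouse 8. Of the proliferation genes, *Mki67* was called lower in WT CAC and *Top2a* in *Cldn2*TG CAC mice against naive WT. In *Cldn2*TG CAC against WT CAC edgeR called 0 of 4, with 1 at an unadjusted p under 0.05 and 1 by DESeq2.

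**Figure D3:**
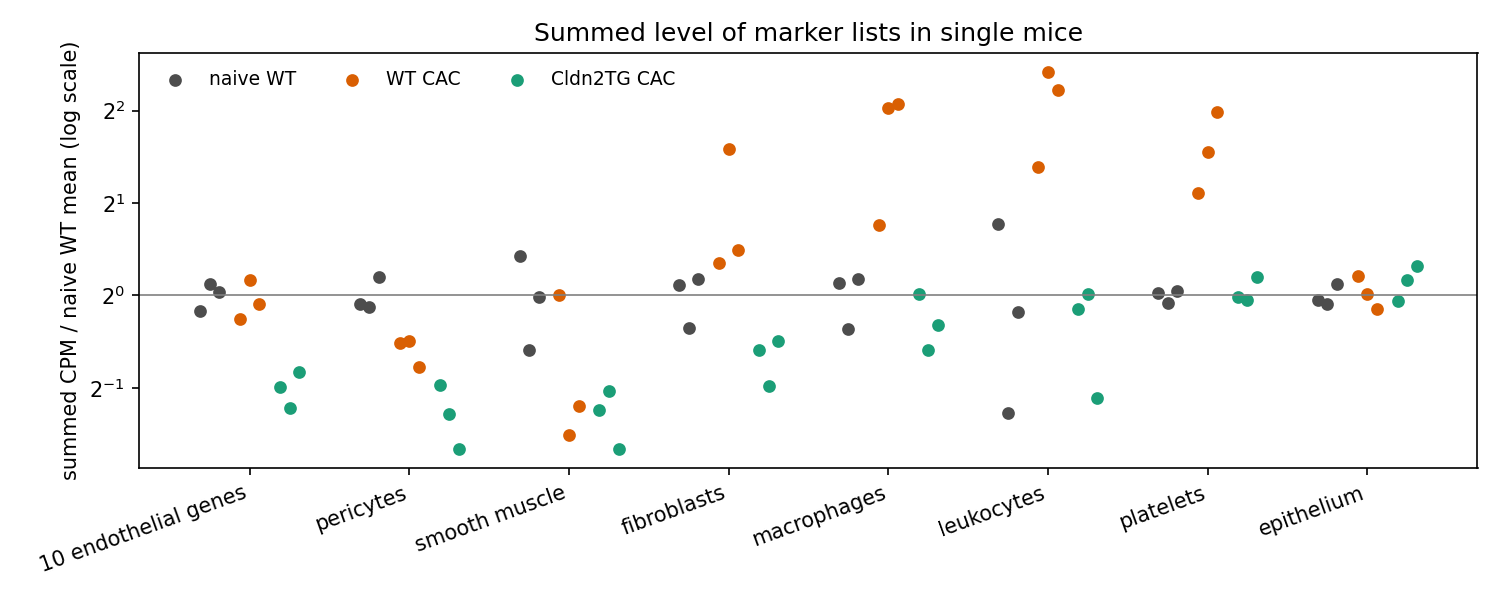
Summed CPM of the 10 endothelial genes and of 7 marker lists in single mice, divided by the naive WT mean and drawn on a log axis. The 3 *Cldn2*TG CAC mice are below all WT mice for the endothelial, pericyte and fibroblast genes, while macrophage, leukocyte and platelet genes are highest in WT CAC mice.

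The genes most like the 10 over the 9 mice were found by the Pearson correlation of their log2 CPM with the mean of the standardised log2 CPM of the 10. The highest were *Olfml2b* (r = 0.965), *Bmp8b* (0.951), *Eng* (0.949), *Adgrf5* (0.948), *Arhgef3* (0.946), *Robo4* (0.945), *Arhgap10* (0.945), *Lepr* (0.944), *P3h3* (0.942) and *Sparc* (0.940). These values describe likeness over 9 mice that fall into groups, and the group difference is part of them. *Sparc*, a matrix protein of stroma and vessels, stood at 124, 102 and 123 CPM in naive WT mice, 86.9, 169 and 101 CPM in WT CAC mice and 37.4, 32.2 and 38.1 CPM in *Cldn2*TG CAC mice. *Adgrf5*, an adhesion receptor of endothelium, followed the same mice over a smaller range, from 2.52 to 6.09 CPM, and edgeR called it in no comparison.

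The sequences upstream of the starts of the 10 genes are shown where RefSeq windows were held, which was the case for 4 of the 10. They cover 170 to 21 bases before the RefSeq start in GRCm38.p6, 150 bases each, and hold no exon of GENCODE M21. Members of the ETS family, to which ERG, FLI1 and ETS1 belong, bind sites with the core GGAA, which is in capitals below in either orientation (GGAA or TTCC). *Flt1* lies at chr5:147726032-147726181 on the minus strand, *Kdr* at chr5:75978476-75978625 on the minus strand, *Tek* at chr4:94739119-94739268 on the plus strand and *Emcn* at chr3:137340908-137341057 on the plus strand. All are written 5′ to 3′ in the direction of transcription.
Flt1: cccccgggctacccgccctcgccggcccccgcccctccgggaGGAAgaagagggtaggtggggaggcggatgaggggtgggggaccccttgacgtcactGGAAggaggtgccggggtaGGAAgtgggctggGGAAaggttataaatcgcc
Kdr: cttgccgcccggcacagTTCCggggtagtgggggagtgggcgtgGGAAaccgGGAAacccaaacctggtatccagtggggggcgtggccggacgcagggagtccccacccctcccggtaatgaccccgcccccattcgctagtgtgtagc
Tek: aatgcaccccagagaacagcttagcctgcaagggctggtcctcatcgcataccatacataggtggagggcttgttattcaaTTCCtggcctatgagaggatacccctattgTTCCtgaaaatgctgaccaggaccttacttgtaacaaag
Emcn: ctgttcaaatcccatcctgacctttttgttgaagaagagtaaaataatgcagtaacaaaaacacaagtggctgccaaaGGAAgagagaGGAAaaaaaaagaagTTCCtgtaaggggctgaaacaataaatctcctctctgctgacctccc

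GGAA was found 4 times in *Flt1*, 3 times in *Kdr*, 2 times in *Tek* and 3 times in *Emcn*, on both strands, and 80.9% of all 32851 promoter windows of this length hold it. The longer AGGAAG, which contains GGAA, was found 2 times in *Flt1*, 1 time in *Emcn* and in neither *Kdr* nor *Tek*, and is in 19.0% of all windows. GGGCGG was found 2 times each in *Flt1* and *Kdr*, against 26.4% of all windows, and TATAAA 1 time in *Flt1*, against 7.75%. The G and C content was 69.3% in *Flt1*, 68.0% in *Kdr*, 48.0% in *Tek* and 40.7% in *Emcn*, with a median of 53.3% over all windows. The windows of *Flt1* and *Kdr* lay above this median and those of *Tek* and *Emcn* below it. No window was held for *Plvap*, *Cdh5*, *Esam* and *Pecam1*, which were called, and a link between this content and the calls was not tested. With 4 windows this is a description, and a match of letters is not a bound site.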

How the data were processed

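RNA was measured in the colon of 9 mice, grouped by their genotype and treatment labels. The authors deposited whole-number counts per gene for 2 lanes of each library, with exon lengths in bases, and the lanes were added up here. The lanes of a library differed by a chi-square of 0.995 to 1.057 per degree of freedom. The labels name HISAT2 and featureCounts with GRCm38, whereas the methods name TopHat2, and versions, settings and strand are not given in the sources used here. Symbols came from GENCODE M21, which lists 47224 of the 47729 identifiers.

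Each comparison was fitted on its 6 mice with edgeR 4.0.16 in R 4.3.3 (TMM, filterByExpr with a minimum count of 10 and total of 15, robust quasi-likelihood, two-sided test, Benjamini-Hochberg over all genes tested). Genes with an adjusted p under 0.05 are called. Standard errors came from the F statistic, and 95% intervals from its degrees of freedom. TPM was computed from the counts and the deposited lengths. Correlations used log2 of CPM plus 0.5 over genes with a mean of at least 1 CPM. The pipeline was tested on simulated counts.

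The genes and the 22 lists were chosen with earlier results of these data known. Named beside the 10 genes were *Cldn2*, of each list the 2 genes with the highest mean CPM and the 2 called with the largest change, genes in counts of 5 or fewer, and the 10 most alike. *Xist* and genes at or near 0 (*Ccl21a*, *Sele*, *Gp9*) were named after their values were seen, as were others outside this rule. Alternatives were DESeq2 1.42.0, library size alone, upper-quartile scaling, no filter, a minimum of 10 counts per mouse, a fit of all 9 mice together, either lane by itself and leaving out each mouse.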

Additional observations from a re-analysis of the deposited data

How the results depend on the processing

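The 14 alternatives of each comparison gave 418 values for the 10 single genes, of which 363 kept their direction and their side of the threshold, 38 lost a call, 5 gained one and 12 changed sign. No called value changed sign. The sign changes were in WT CAC against naive WT *Flt1* with lane 1 alone (0.04), without naive WT mouse 3 (0.02) and without WT CAC mouse 4 (0.15), *Pecam1* without naive WT mouse 2 (0.07) and without WT CAC mouse 6 (0.04), *Tek* without WT CAC mouse 4 (0.01), and *Cdh5* and *Kdr* without WT CAC mouse 5 (-0.26 and -0.03). For *Cldn2*TG CAC against WT CAC they were *Lyve1* without mouse 5, 7 or 8 (0.41, 0.14 and 0.03), and against naive WT *Vwf* with lane 2 alone (0.05). The ranges of these genes when 1 mouse was left out were, in the first comparison, -0.20 to 0.15 (*Flt1*), -0.16 to 0.07 (*Pecam1*), -0.64 to 0.01 (*Tek*), -0.26 to 0.29 (*Cdh5*) and -0.03 to 0.35 (*Kdr*), and -0.34 to 0.41 for *Lyve1* against WT CAC. The cause was not tested.

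The number of the 10 genes called in *Cldn2*TG CAC mice was 1 to 6 against WT CAC mice and 3 to 5 against naive WT mice when 1 mouse was left out, and 3 in the former with at least 10 counts in every mouse, where fewer genes were tested. Their median log2 fold change in *Cldn2*TG CAC against naive WT was -1.17 to -0.82 when 1 mouse was left out, and -1.16 to -0.85 against WT CAC over all alternatives. The summed levels, recomputed with both other scalings, with each lane and without each mouse, moved by less than 1 SD. Library size alone shifted the median of all genes to -0.111 in *Cldn2*TG CAC against naive WT, where the median of the 10 was -1.06. *Flt1*, *Tek*, *Emcn*, *Kdr* and *Cdh5* had 7 to 35 counts per *Cldn2*TG CAC mouse and standard errors of 0.35 to 0.45 against WT CAC. *Lyve1*, with 101 to 178 counts, had 0.36. The part of depth in this precision was not tested.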
